A study of Mus musculus with 7 samples.

Results

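The genes described here are those that reached 50 CPM (a gene's count over the library total, times 1000000) in every one of 7 single mouse embryos. Ribosomal protein, respiratory chain, proteasome and translation factor genes were left out by the start of their symbol, and 7 further genes by name. The rule kept 49 of 26194 symbols allowed by name (0.187%), out of 26586 symbols in the count table. They are 12.4% of the 395 allowed symbols with a count in every embryo, and 0.336% of the 14583 with a count in any embryo. The genes were selected on these CPM values, which are also the values described, so levels and spreads are given as a description, with no test of a difference. The embryos were morulae of the C57BL/6 background, taken untreated at 3 days post coitum from the reproductive tract of mothers with 1 mutant copy of L13a (Rpl13a, a protein of the large ribosomal subunit), mated in an L13a-/+ cross. All 7 belong to 1 group. The labels state neither an embryo's own genotype nor its litter, so embryos of different genotype or litter cannot be told apart. Fewer cells with a transcript and less of it per cell cannot be told apart either, since each library is a whole embryo.

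A mouse embryo at the morula stage holds RNA of maternal and of embryonic origin. Messages laid down in the oocyte are degraded over the first cleavages, while the embryo's own genome takes over transcription. A gene whose message is abundant in every embryo may therefore be maternal in one, embryonic in another, or both, and these counts do not separate the sources. Many genes of this kind serve functions that all dividing cells need, such as RNA binding, protein turnover, chromatin upkeep and the cytoskeleton.

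The libraries were very unequal, which bears on every value. Totals ran from 139619 counts in replicate 6 to 33123742 in replicate 4, and the number of genes with a count from 1749 to 12064. At the threshold, 50 CPM equals 6.98 counts in replicate 6 and 1656 counts in replicate 4. Each CPM has a counting error given here as an exact 95% Poisson interval, which covers counting error only because the libraries carry no molecular identifiers. For 38 of the 49 genes the interval stayed at or above 50 CPM in all 7 embryos. For the other 11 it reached below 50 CPM somewhere, in 5 cases in replicate 6, where Klhdc2 rested on 9 counts (64.5 CPM, interval 29.5 to 122). In replicate 6 the oviduct and uterus markers summed to 6289 CPM over 16 genes, 4 of them counted, with Sprr2f at 1948 CPM and Lcn2 at 1490 CPM, and with Ovgp1 at 0. In the other 6 embryos that sum was lowest in replicate 5, at 1.81 CPM, and highest in replicate 2, at 1929 CPM, and its part in the levels of the 49 genes was not tested.

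Of the symbols allowed by name, 18731 did not reach 50 CPM in any embryo. A further 3190 reached 50 CPM in 1 embryo, 1750 in 2, 1124 in 3, 733 in 4, 434 in 5, 183 in 6 and 49 in all 7. Of the 183 genes that missed in a single embryo, 73 missed in replicate 6 and 49 in replicate 5. The next highest numbers were 25 in replicate 3 and 20 in replicate 4, while replicates 1, 2 and 7 accounted for 6, 5 and 5. Without replicate 6 the rule kept 122 genes, without replicate 5 it kept 98 and without replicate 3 it kept 74. The 49 genes made up 3.20, 2.49, 4.37, 1.62, 3.31, 5.01 and 2.92% of all counts in replicates 1 to 7.

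**Figure D1:**
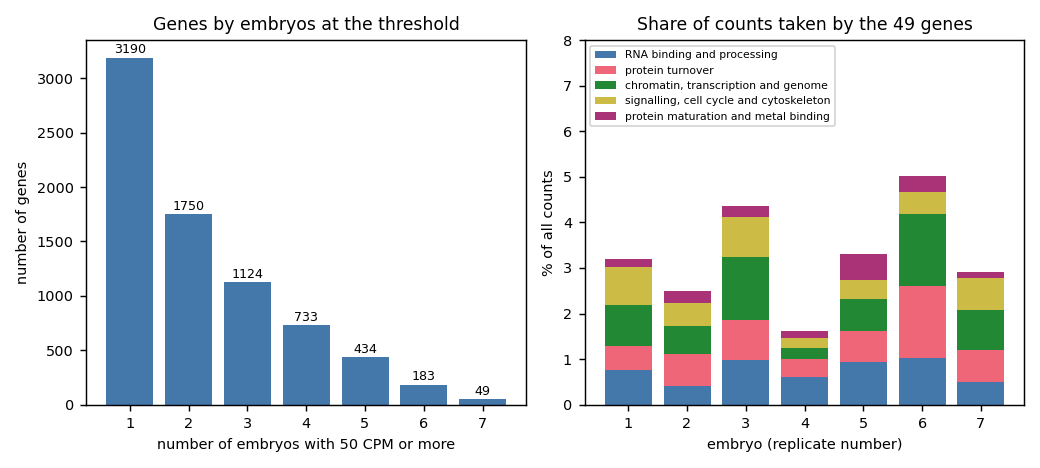
Left, number of genes (vertical axis) that reached 50 CPM in 1 to 7 embryos (horizontal axis), from 3190 genes in 1 embryo to 49 in all 7. Right, percent of all counts taken by the 49 genes in each embryo, stacked by role; the bars run from 1.62% in replicate 4 to 5.01% in replicate 6.

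The threshold divides a continuum. Just inside were Mbtd1 with a lowest value of 51.1 CPM, Znrf2 with 51.2 CPM and Pafah1b1 with 52.0 CPM. Just outside were the splicing factor gene Cwc15 (48.2 CPM, 35 counts in replicate 3), Mllt10 (48.0 CPM), Unc50 (44.9 CPM) and the histone chaperone gene Nap1l1 (43.6 CPM). Rpl41, at 49.6 CPM, would also have been left out by its symbol. The 17 genes that reached the threshold but were left out by name are the ribosomal RNA entries Rn45s, Rnr1 and Rnr2, Lars2, Dppa3, Suz12, Pttg1, Cox8a, 3 translation initiation factors and 6 genes whose symbols start with Rpl or Rps.

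The 49 genes were sorted by their known main function into 5 groups, after their names were known, and each is described in turn. Median CPM over the 7 embryos ran from 89.5 for Znrf2 to 2418 for Cdc42se2. Spread among embryos is given as the SD of log2 CPM (n = 7), with no offset because none of these genes had a count of 0.

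**Figure D2:**
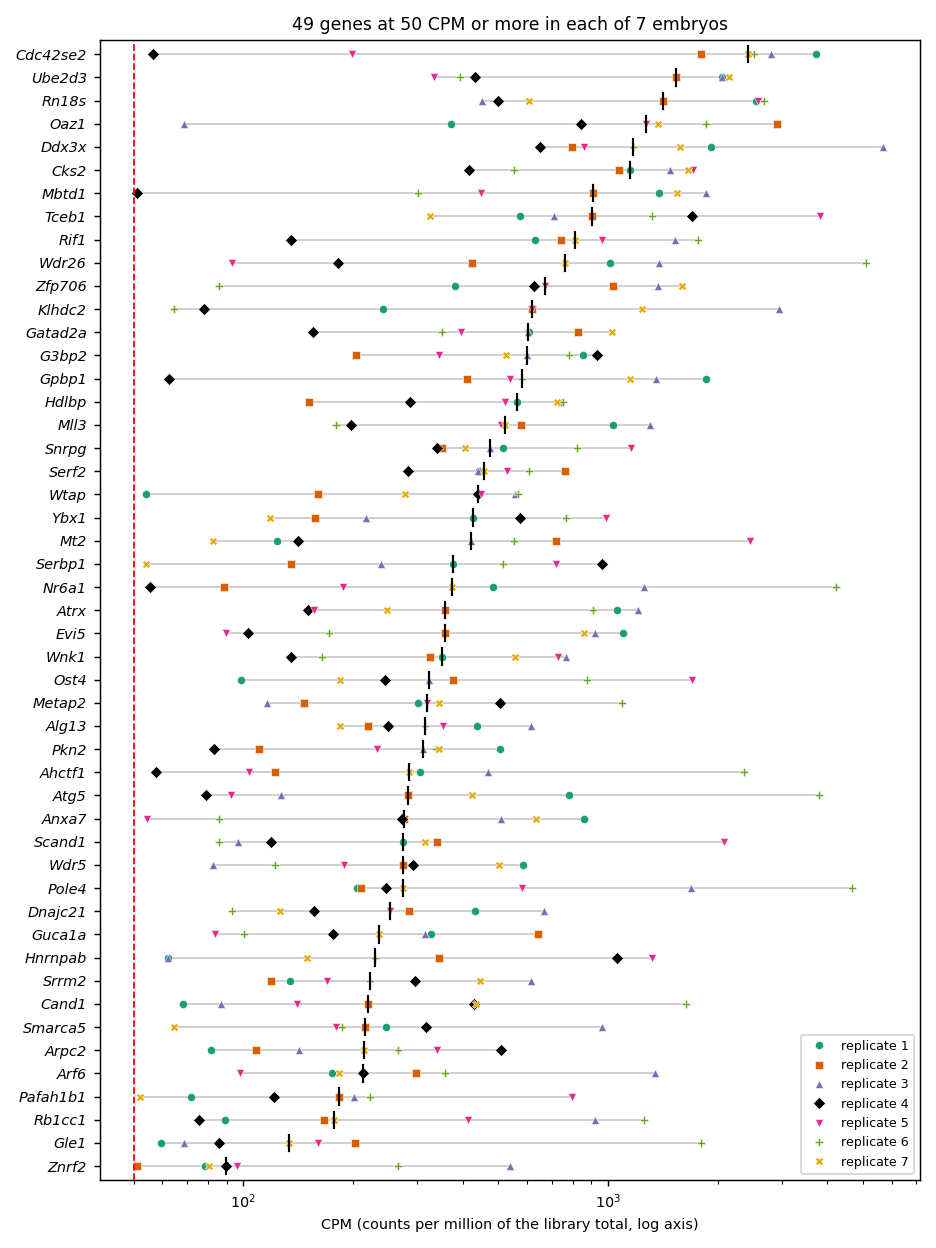
CPM (horizontal, log axis) of the 49 genes (vertical, by falling median) in the 7 embryos; each symbol is 1 embryo, the black bar is the median and the dashed line is 50 CPM. The highest value was between 2.69 and 76.2 times the lowest, from Serf2 to Nr6a1.

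RNA binding and processing was represented by 11 genes, with the ribosomal RNA Rn18s counted among them. Ddx3x, an X-linked helicase that acts on messenger RNA in translation, stood at 1911, 796, 5683, 650.2, 862, 1175 and 1578 CPM in replicates 1 to 7. Replicate 3 was the highest, and replicate 4 the lowest. Snrpg, a core Sm protein of the spliceosome, stood at 515, 349.6, 475, 339.5, 1156, 824 and 406 CPM, within a 3.41-fold range. G3bp2, a stress granule protein, ranged 4.57-fold, with 855, 204, 598, 934, 343, 781 and 524 CPM. Of these 3 genes, Ddx3x and Snrpg were lowest in replicate 4, the deepest library, while G3bp2 was highest there.

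Among the other RNA-binding genes, some were lowest in replicates that were high for others. Ybx1, a cold-shock domain protein that packages messenger RNA, stood at 426, 157, 216, 575, 988, 766 and 118 CPM. Serbp1, which binds messenger RNA and ribosomes, stood at 376, 135, 238, 961, 721, 516 and 54.1 CPM. Hnrnpab, a nuclear RNA-binding protein, stood at 62.1, 344, 62.0, 1058, 1321, 229 and 149 CPM. Ybx1 and Serbp1 were lowest in replicate 7, and Serbp1 and Hnrnpab had their 2 highest values in replicates 4 and 5. The 95% interval of Hnrnpab reached below 50 CPM in replicates 1 (lower limit 48.5) and 3 (lower limit 45.2).

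The 4 further members of this group with protein products were Hdlbp, Wtap, Srrm2 and Gle1. Hdlbp (vigilin), a KH-domain protein, had a lowest value of 151, a median of 562 and a highest value of 752 CPM. Wtap, a subunit of the complex that methylates adenosine in messenger RNA, ran from 54.2 over a median of 439 to 566 CPM. Hdlbp was lowest in replicate 2 and Wtap in replicate 1, and both were highest in replicate 6. Srrm2, a scaffold of nuclear speckles, ran from 119 over 222 to 615 CPM. Gle1, which acts in messenger RNA export, ran from 59.4 over 133 to 1798 CPM, the last in replicate 6.

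Rn18s, the symbol of 18S ribosomal RNA, also met the rule, with 2542, 1415, 451, 499, 2572, 2686 and 608 CPM in replicates 1 to 7. It is not a messenger RNA, although the libraries were primed on polyadenylated RNA. Rn18s had no matched position, so copies and reads shared with other ribosomal RNA entries such as Rn45s were not checked, and its level is uncertain. Replicates 1, 2, 5 and 6 were higher than replicates 3, 4 and 7. Without it the share of counts held by the remaining genes was 2.94, 2.35, 4.32, 1.57, 3.05, 4.74 and 2.86%.

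Protein turnover was represented by 9 genes. Ube2d3, an E2 enzyme that hands ubiquitin to many ligases, stood at 2048, 1532, 2054, 431, 332, 394 and 2152 CPM. It was high in replicates 1, 2, 3 and 7 and lower in replicates 4, 5 and 6, and its lowest value was 332 CPM. Tceb1 (elongin C, Eloc), an adaptor of cullin ligases, stood at 573, 903, 711, 1700.2, 3819, 1318 and 324 CPM, with its highest values in replicates 5 and 4 and its lowest in replicate 7. The order of the embryos for these 2 genes of the ubiquitin pathway was thus different.

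Oaz1, the antizyme that targets ornithine decarboxylase to the proteasome and limits polyamine synthesis, stood at 372, 2915, 68.9, 844, 1273, 1855 and 1369 CPM. Replicate 3 was the low embryo, 5.39-fold below the next. Wdr26, a subunit of the CTLH ubiquitin ligase, stood at 1011, 425, 1383, 182, 93.3, 5114 and 761 CPM. Klhdc2, a cullin substrate receptor for proteins ending in glycine, stood at 242, 617, 2952, 78.2, 619, 64.5 and 1238 CPM. Atg5, needed for autophagosome formation, stood at 781, 282, 127, 79.2, 92.2, 3796 and 423 CPM. Wdr26 and Atg5 both peaked in replicate 6, where Klhdc2 was lowest.

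The remaining turnover genes had lower medians. Rb1cc1 (FIP200), which starts autophagy, ran from 75.4 over a median of 177 to 1253 CPM. Cand1, which exchanges substrate receptors on cullins, ran from 68.2 over 219 to 1640.2 CPM. Znrf2, a ubiquitin ligase of membranes, ran from 51.2 over 89.5 to 539 CPM. Rb1cc1 and Cand1 were highest in replicate 6 and Znrf2 in replicate 3.

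The largest group, with 13 genes, acts in chromatin, transcription and genome upkeep. Mbtd1, an MBT-domain subunit of the TIP60 acetyltransferase complex, stood at 1377, 908, 1856, 51.1, 447, 301 and 1546 CPM. Rif1, a regulator of replication timing, stood at 630.3, 745, 1531, 135, 963, 1762 and 814 CPM. For both genes replicate 4 was lowest, 5.89-fold below the next embryo for Mbtd1 and 4.66-fold for Rif1. Smarca5, the ATPase of ISWI chromatin remodellers, stood at 247, 215, 965, 316, 179, 186 and 64.6 CPM, with replicate 7 lowest. In GENCODE 6 pseudogenes match Smarca5 over at least 300 bases at 95% identity or more, so its level is uncertain. The level is also uncertain for the other 8 genes with a match of that length and identity. These are Wtap, with 2 matches, and Serf2, Snrpg, Ybx1, Arpc2, Metap2, Srrm2 and Evi5, with 1 each. The match of Serf2 is the protein-coding gene Fam221b and that of Snrpg the long noncoding RNA Gm49262, while the others are pseudogenes.

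Nr6a1 (GCNF), an orphan nuclear receptor that represses Oct4, had the widest range of the 49, with 485, 88.5, 1253, 55.4, 188, 4219 and 372 CPM. Ahctf1 (ELYS), which seeds nuclear pores on chromatin, ran from 57.5 over a median of 285 to 2364 CPM. Pole4, a small subunit of DNA polymerase epsilon, ran from 205 over 274 to 4656 CPM. All 3 were highest in replicate 6, at 3.37 times the next embryo for Nr6a1 and 5.03 times for Ahctf1. Scand1, a SCAN-domain protein, was highest in replicate 5 (2079 CPM), with a median of 275 CPM and a lowest value of 85.9 CPM.

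Next come 4 further chromatin regulators. Gatad2a, a subunit of the NuRD repressor complex, ran from 156 over 605 to 1029 CPM. Mll3 (Kmt2c), a histone H3K4 methyltransferase, ran from 179 over 523 to 1301 CPM. Wdr5, a core subunit of the H3K4 methyltransferase complexes, ran from 82.7 over 274 to 583 CPM. Atrx, an X-linked remodeller of heterochromatin, ran from 150.2 over 358 to 1211 CPM. In these 4 genes the highest value was 6.61, 7.26, 7.05 and 8.06 times the lowest. The DNA-binding proteins Gpbp1 (62.6, 580.1 and 1860.4 CPM as lowest, median and highest) and Zfp706 (85.9, 672 and 1594 CPM) ranged 29.7-fold and 18.5-fold.

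Signalling, the cell cycle and the cytoskeleton were represented by 10 genes. Cdc42se2, a small effector of the GTPase Cdc42, stood at 3716, 1794, 2792, 56.6, 198, 2521 and 2418 CPM. Replicates 4 and 5 were far below the other 5 embryos. By library total its SD, 2.33, was the largest of the 49 genes, and without replicate 4 it was 1.55. Cks2, a subunit that docks cyclin-dependent kinases to their substrates and is needed in meiosis, stood at 1149, 1070.2, 1479, 415, 1707, 552 and 1659 CPM. It was at 415 CPM or more in every embryo. Per kilobase of annotated exon it stood highest of the 48 genes with a known length, with a median RPKM (CPM per kilobase) of 1660.0, against a median of 73.2 over the 48.

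Arpc2, a subunit of the Arp2/3 complex that branches actin filaments, stood at 81.3, 109, 142, 510.2, 339, 265 and 214 CPM. Arf6, a GTPase of endocytosis and the cell cortex, stood at 175, 298, 1348, 213, 97.7, 358 and 183 CPM. Arpc2 was highest in replicate 4, while Arf6 was highest in replicate 3, at 3.76 times the next embryo. Pafah1b1 (LIS1), a regulator of dynein, ran from 52.0 over 183 to 795 CPM. Evi5, a regulator of Rab GTPases and the cell cycle, ran from 89.7 over 357 to 1096 CPM.

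The kinases of this group were Wnk1, which controls ion transport (135, 351 and 765 CPM as lowest, median and highest), and Pkn2, of the protein kinase N family (83.3, 310.0 and 506 CPM). Both were lowest in replicate 4. Anxa7, a calcium-dependent membrane-binding protein, ran from 54.3 over 276 to 861 CPM. Guca1a, known as an activator of guanylate cyclase in photoreceptors, ran from 83.6 over 235 to 641 CPM. The reads counted for Guca1a were not traced to a transcript.

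Protein maturation and metal binding were represented by 6 genes. Serf2, a small protein with a lysine-rich tail, stood at 441, 761, 441, 283, 529, 609 and 456 CPM. Its range of 2.69-fold was the smallest of the 49. Alg13, an X-linked subunit of the enzyme that adds the second sugar of N-glycan precursors, stood at 436, 219.6, 613, 249, 353, 315 and 184 CPM, within 3.33-fold. Neither gene had an embryo that stood far from the rest.

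Ost4, a subunit of the oligosaccharyltransferase, ran from 98.8 over a median of 322 to 1702 CPM. Metap2, which removes the first methionine of new proteins, ran from 116 over 319 to 1096 CPM. Dnajc21, a J-domain protein of ribosome maturation, ran from 93.1 over 252 to 670 CPM. Mt2, a metallothionein that binds zinc and copper, ran from 82.6 over 420.3 to 2450.1 CPM. Mt2 and Ost4 were highest in replicate 5.

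**Figure D3:**
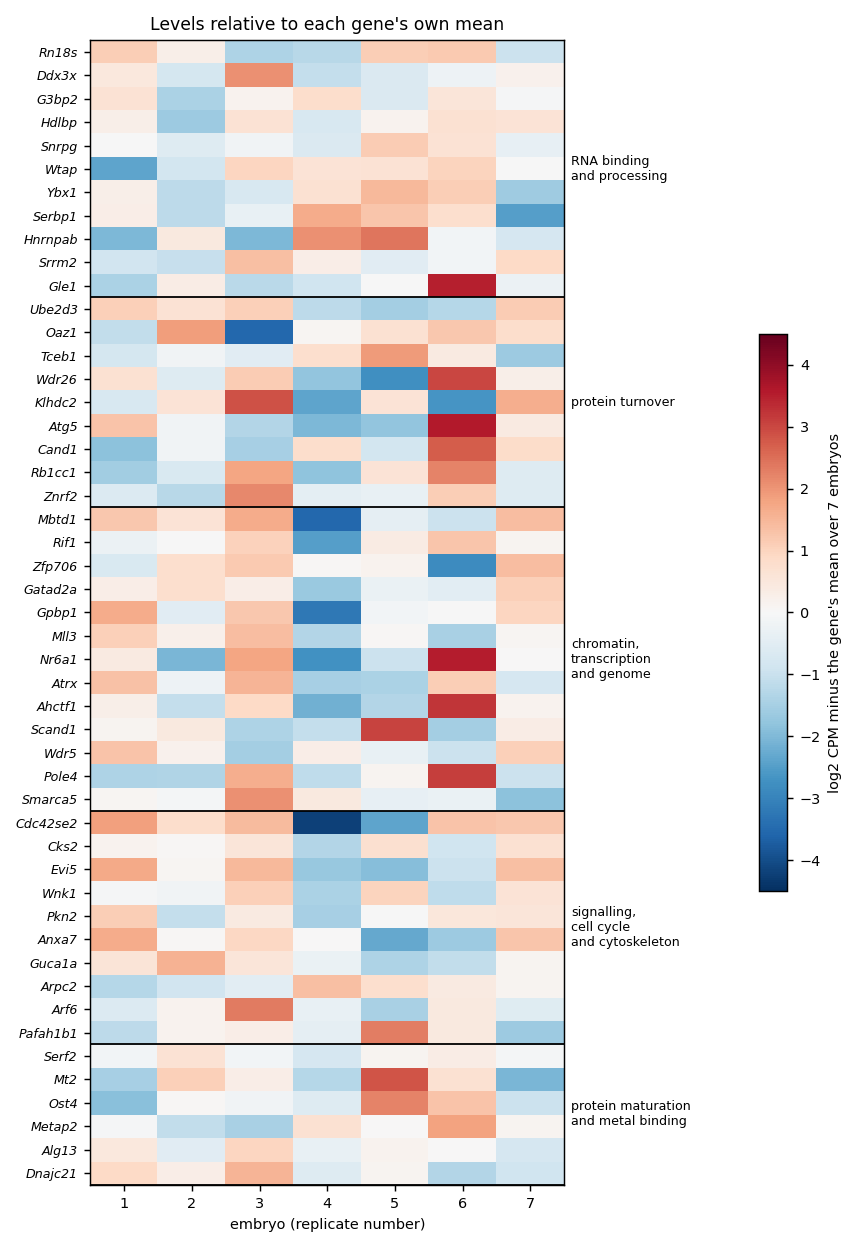
Log2 CPM of each of the 49 genes minus its own mean over the 7 embryos (colour, from blue for below to red for above), with embryos in columns and genes in rows by role. Replicate 4 is mostly blue, with a median of -0.77, and replicate 3 mostly red, with a median of 0.88.

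Levels of these genes differed widely between the 7 libraries. The median SD of log2 CPM was 1.23 over the 49 genes, from 0.45 for Serf2 to 2.33 for Cdc42se2, and the median ratio of highest to lowest was 12.2. The SD was under 1 for 11 genes and under 2 for 46. Highest and lowest lay less than 5-fold apart for 6 genes (Serf2, Alg13, Snrpg, Cks2, G3bp2 and Hdlbp) and more than 20-fold apart for 15. The SD expected from counting error alone was at most 0.19, and every gene's SD was at least 6.12 times its own counting error. That error leaves out the noise of amplifying RNA from 1 embryo, which was not measured. Among the 346 other genes counted in all 7 embryos and allowed by name the median SD was 2.56, a comparison that the floor of 50 CPM fixes in part.

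**Figure D4:**
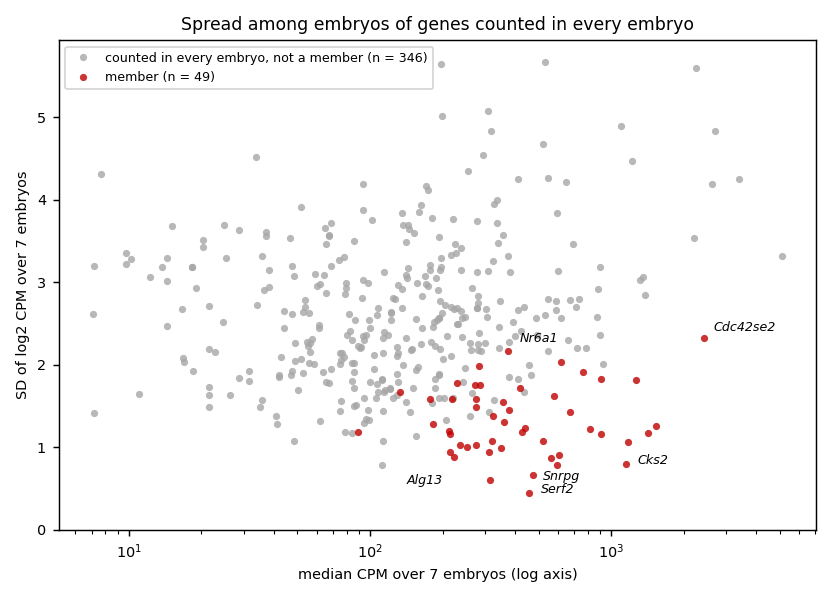
SD of log2 CPM over the 7 embryos (vertical) against median CPM (horizontal, log axis) for the 395 genes counted in every embryo and allowed by name. The 49 genes at 50 CPM or more throughout (red) lie along the lower edge, from 0.45 for Serf2 to 2.33 for Cdc42se2; grey points are the other 346.

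The 5 genes of smallest SD were Serf2 (mean log2 CPM 8.92 ± 0.45), Alg13 (8.29 ± 0.60), Snrpg (9.04 ± 0.66), G3bp2 (9.08 ± 0.79) and Cks2 (10.00 ± 0.80; SD, n = 7). The 5 of largest SD were Cdc42se2 (10.02 ± 2.33), Nr6a1 (8.52 ± 2.17), Klhdc2 (8.65 ± 2.03), Atg5 (8.31 ± 1.99) and Wdr26 (9.30 ± 1.92). Of these last 5 genes, 2 were among the 5 of largest SD by TMM, by DESeq2 size factors and in the authors' table, and 1 without replicate 6. The largest SD was that of Klhdc2 by TMM (2.12), of Nr6a1 with DESeq2 size factors (2.20) and of Oaz1 without replicate 4 (1.99). Without replicate 6 the SD of Atg5 was 1.32. Serf2 had the smallest SD under TMM scaling (0.51) and with DESeq2 size factors (0.68), and Snrpg had it in the authors' quantile-normalized table (0.52). Exons of Serf2 share 1893 bases with Hypk on the same strand, and the count table has no entry under the symbol Hypk. Serf2 exons also share 2296 bases with Serinc4 on the opposite strand, which had 0 counts in all embryos. Serf2 and Snrpg also each have a near-identical stretch elsewhere, as above. How reads shared by such genes were assigned is not known. Exons of 17 of the 48 genes with a position overlap a gene on the opposite strand, and without strand in the counting such reads cannot be told apart.

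The promoters of these genes were mostly rich in CpG, as were those of other genes counted in every embryo. RefSeq windows of 300 bases, from 250 before to 50 after a transcript start, were at hand for 43 of the 49 genes (58 windows). Their median GC content was 65.7% and the median ratio of observed to expected CpG was 0.90, with 39 of 43 genes (90.7%) above 0.6. Over the promoters of all 27025 RefSeq genes in the table the medians were 52.8% and 0.39, and 35.5% were above 0.6. For 281 other genes counted in every embryo they were 64.0% and 0.86, with 87.2% above 0.6. These values were not tested.

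Windows of 3 genes with a single window are shown because they lie toward opposite ends of the range of spread: Serf2 and Alg13, of smallest SD, and Klhdc2, of large SD. They are written 5′ to 3′ on the gene's strand, from RefSeq on GRCm38.p6, and capitals mark every match on either strand to 1 of 6 motifs. These were the GC box of Sp factors, which is spelled GGGCGG, the E-box bound by Myc-type factors, spelled CACGTG, and the box bound by the factor NF-Y, spelled CCAAT. The others were the TATA box of core promoters, searched as TATAAA, the cyclic AMP response element, searched as TGACGTCA, and the core of ETS factor sites, searched as CCGGAAGT. Serf2 lies at chr2:121448948-121449247 on the plus strand, Alg13 at chrX:144317716-144318015 (plus) and Klhdc2 at chr12:69296431-69296730 (plus).
Serf2: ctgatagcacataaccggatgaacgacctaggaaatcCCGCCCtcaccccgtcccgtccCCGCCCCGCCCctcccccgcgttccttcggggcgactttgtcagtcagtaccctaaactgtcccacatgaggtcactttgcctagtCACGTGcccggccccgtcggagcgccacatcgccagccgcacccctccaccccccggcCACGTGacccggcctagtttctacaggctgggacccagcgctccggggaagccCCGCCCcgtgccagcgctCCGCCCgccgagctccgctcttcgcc
Alg13: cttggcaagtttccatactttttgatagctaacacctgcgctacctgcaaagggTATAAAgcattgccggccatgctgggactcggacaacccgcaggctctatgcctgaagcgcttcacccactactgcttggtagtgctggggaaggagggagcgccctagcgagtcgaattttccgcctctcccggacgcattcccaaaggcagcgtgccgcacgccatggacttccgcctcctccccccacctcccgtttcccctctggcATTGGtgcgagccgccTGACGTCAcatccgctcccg
Klhdc2: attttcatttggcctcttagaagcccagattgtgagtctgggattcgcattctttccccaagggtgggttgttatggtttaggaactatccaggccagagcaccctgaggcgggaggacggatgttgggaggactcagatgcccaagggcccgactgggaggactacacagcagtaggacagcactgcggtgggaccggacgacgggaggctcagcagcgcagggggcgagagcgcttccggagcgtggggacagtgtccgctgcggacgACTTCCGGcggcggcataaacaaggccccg

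Among these windows the GC box occurred in Serf2 and in neither Alg13 nor Klhdc2. Over all 58 windows the GC box was found in 42 (72.4%), against 35.7% of all 32851 windows and 69.6% of the 381 windows of other genes counted in every embryo. For the other motifs the shares follow in the order of the 49 genes, the other genes counted in every embryo, and all windows. The NF-Y box was found in 31.0, 34.6 and 37.4%, the TATA box in 5.17, 6.30 and 13.6% and the E-box in 13.8, 14.2 and 7.15%. The ETS core was found in 8.62, 7.35 and 3.89%, and the cyclic AMP response element in 8.62, 2.62 and 1.79%, with 5 of the 58 windows each. The palindromes known as the NRF1 and M8 motifs were found in 3.45, 2.89 and 0.971% and in 5.17, 1.84 and 0.466%, with 2 and 3 of the 58 windows. All shares are of windows, so overlapping windows of the same gene each count, as for M8 in Ube2d3 and the ETS core in Pole4. Both strands were searched, and a match is a description only, not a binding site. The genes were spread over 15 chromosomes, with 6 each on chromosomes 1 and 2 and 3 on the X chromosome (Ddx3x, Atrx and Alg13).

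Of 16 genes often taken as stable references, 1 had a count in all 7 embryos, beside 395 of the 26194 symbols allowed by name. The rule was met by 0 of the 16 and by 0.187% of all allowed symbols, so neither count is a result about these genes. Actb (beta-actin) stood at 412, 629.9, 33.1, 7179.5, 408, 2242 and 423 CPM. It missed the threshold in replicate 3 alone and spanned a wider range than any of the 49 genes, with its highest value in replicate 4. Gapdh, of glycolysis, had counts of 0, 245, 0, 2003, 0, 6 and 109, and reached 50 CPM in replicate 4 alone (60.5 CPM). Hprt, of purine salvage, had counts of 0, 2186, 0, 44751, 1, 0 and 222. Ppia (cyclophilin A) was highest in replicates 4 and 5, at 1044 and 861 CPM, and had 0 counts in replicates 3 and 6.

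Other reference genes reached the threshold in some embryos or in none. H2afz, Ywhaz and Tubb5 each reached 50 CPM in 3 embryos, Tfrc in 4, Pgk1 in 2, and Sdha, Tbp, B2m and Polr2a in 1. Gusb did not reach it in any. A count of 0 allows up to 21.5 CPM in replicate 6 and 4.13 CPM in replicate 3 (3 counts), so these genes at 0 were below the threshold of 50 CPM at these depths. The limits cover counting error only.

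**Figure D5:**
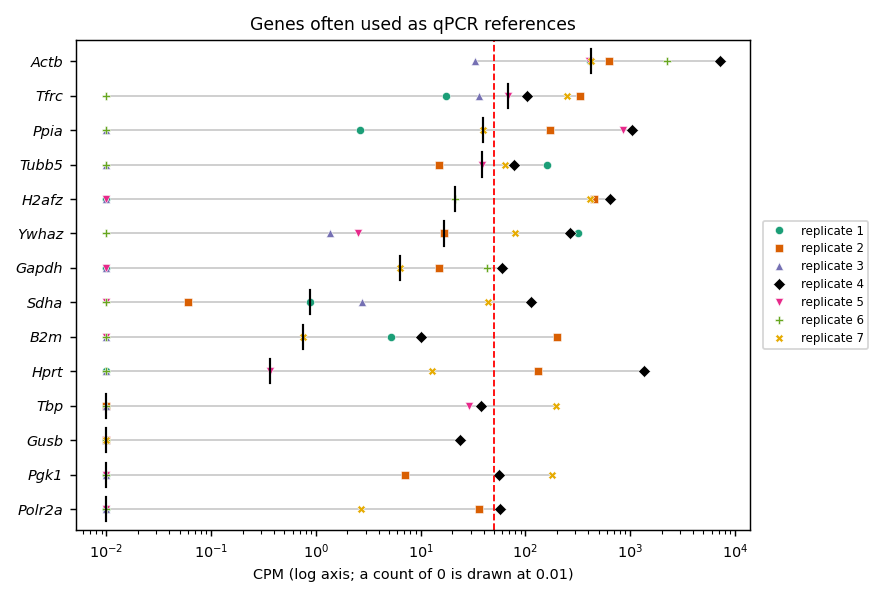
CPM (horizontal, log axis, with counts of 0 drawn at the left edge) of 14 of the 16 genes often used as references in quantitative PCR, in the 7 embryos; the black bar is the median and the dashed line is 50 CPM. Of the 14, only Actb has a count in every embryo, and it ranges from 33.1 to 7179.5 CPM.

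Some genes of other functional lists met the rule. Of 525 different genes in 21 lists, 54 had a count in every embryo, beside 395 of the 26194 symbols allowed by name. Among the 49 were 10 of the 525 (1.90%), against 0.187% of all symbols allowed by name. The lists were chosen with earlier results of these data known and were not matched to other genes for level. They include splicing and hnRNP genes, 42 of 44 at 50 CPM in some embryo, and cumulus markers, 1 of 14. The difference between 1.90% and 0.187% was not tested. Ubiquitin conjugation had 2 of 33 (Ube2d3 and Tceb1), splicing and hnRNP proteins 2 of 44 (Snrpg and Hnrnpab) and messenger RNA binding and decay 2 of 28 (Ybx1 and Serbp1). The cytoskeleton had 1 of 31 (Arpc2), the cell cycle 1 of 38 (Cks2), membrane traffic 1 of 42 (Arf6) and chromatin 1 of 34 (Smarca5). Lists with 0 members were heat shock chaperones (30 genes), histones and their chaperones (22), small GTPases and 14-3-3 proteins (22), nuclear transport (18), mitochondrial carriers and import (30), antioxidant enzymes (20) and glycolysis (18). With 0.187% of all allowed symbols meeting the rule, 0 in lists of this size is no result about them. All 30 heat shock and chaperonin genes reached 50 CPM in some embryo, and the one with the highest minimum was Hspa9, at 27.6 CPM in replicate 3.

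None of 34 oocyte genes, 19 trophectoderm genes and 18 pluripotency genes met the rule, and with 0.187% of all allowed symbols meeting it, 0 in lists of this size is no result about them. A count in every embryo was held by 395 of the 26194 symbols allowed by name. For trophectoderm and pluripotency, 0 genes had one, which is no result about lists of this size. Of the 34 oocyte genes, 6 had one in every embryo, and the highest minimum was that of Siah2, a ubiquitin ligase, at 12.5 CPM in replicate 4. The lists of oviduct and uterus, cumulus, and blood markers held 0 genes counted in every embryo, again no result at their size.

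The 49 genes had their highest and their lowest values in different embryos. The number that had their highest value in an embryo was 6, 3, 12, 3, 9, 13 and 3 for replicates 1 to 7, and the number with their lowest was 6, 4, 5, 16, 6, 5 and 7. Lowest in replicate 4 were 7 of 13 chromatin and transcription genes and 4 of 10 signalling, cell cycle and cytoskeleton genes. In the other groups it was 2 of 9 for protein turnover, 2 of 11 for RNA binding and 1 of 6 for protein maturation. No such share was taken over the other genes counted in every embryo, and these counts were not tested. The 34 oocyte transcripts had low sums in replicates 4 and 5, of 347 and 1645 CPM, against 22992 to 58996 CPM in the other 5. Trophectoderm markers summed to 5183 CPM in replicate 4, with 18 of 19 counted, against 2.76 to 3073 CPM elsewhere. The 3073 CPM was in replicate 6, where 2 of 19 were counted and Dab2 stood at 3065 CPM. The next highest trophectoderm sum was 508 CPM, in replicate 2. Pluripotency markers also had their highest sum in replicate 4, at 5294 CPM with 18 of 18 counted, against 50.1 to 1450 CPM elsewhere. Replicate 4 was the deepest library, with 12064 genes counted, which bears on how many markers have a count. The part of these oocyte, trophectoderm and pluripotency transcripts in the levels of the 49 genes was not tested.

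The scaling of the libraries moved these counts. Relative to each gene's own mean, the median over the 49 genes in replicate 4 was -0.77 by library total, -0.32 by TMM, -0.55 by DESeq2 size factors and -0.98 in the authors' table, so it was below 0 in each. Replicate 3 was above 0 in each, from 0.47 to 0.88. Replicate 6 was at 0.45 by library total but at -0.30 by TMM. By TMM 7 genes were highest in replicate 6 and 15 lowest, and 7 were lowest in replicate 4, in place of 16. With DESeq2 size factors 21 genes were highest in replicate 5, in place of 9, and 13 lowest in replicate 7, in place of 7. Of the 13 chromatin and transcription genes, 5 were lowest in replicate 4 by TMM, 6 with DESeq2 size factors and 9 in the authors' table, in place of 7. Of all 49 genes it was 7, 11 and 20 in these 3 settings, in place of 16. By TMM 40 of 49 genes kept the embryo of their highest value and 33 that of their lowest.

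Pairs of embryos ordered the 49 genes in different ways. Spearman correlations of CPM over the 49 genes ran from -0.23 (replicates 3 and 4) to 0.69 (replicates 1 and 7) with a median of 0.07 over 21 pairs. Over the 395 genes counted in every embryo and allowed by name they ran from -0.17 to 0.57, with a median of 0.24. Both are descriptions across genes, which share a library and are not independent. In replicates 1 and 7 the 49 genes differed by a median of 0.67 on the log2 scale, and in replicates 3 and 4 by 1.96.

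Several pairs of embryos shared the extremes of some genes. Replicates 3 and 6 held the 2 highest values of 10 genes (Rb1cc1, Hdlbp, Ahctf1, Wdr26, Arf6, Wtap, Nr6a1, Rif1, Znrf2 and Pole4; 20.4%), against 7.23% of the 346 other genes counted in every embryo. These are the 2 libraries with the fewest counts. Replicates 1 and 3 held the 2 highest values of 8 genes (16.3% against 8.67%). Replicates 4 and 5 held the 2 lowest values of 6 genes (Ahctf1, Wdr26, Atg5, Cdc42se2, Evi5 and Atrx, 12.2%), a smaller share than the 18.2% of the others. They held the 2 highest of Tceb1, Arpc2, Hnrnpab and Serbp1 (8.16% against 4.91%). Replicates 2 and 4, and replicates 4 and 6, also held the 2 lowest values of 6 genes each (12.2%), against 2.02% and 5.20% of the others. These shares come from the values that chose the genes and are not tested. They were taken by library total only. By TMM the median of replicate 6 relative to the genes' own means was -0.30, in place of 0.45, and the pairs were not recounted.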

How the data were processed

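Polyadenylated RNA of single embryos was amplified with SMART-Seq v4 and made into Nextera XT libraries, per the labels' protocols. The deposited count table holds whole-number read counts, and the deposited log2 table holds values normalized by the authors; HISAT2 2.0.5, featureCounts 1.5.0-p2, limma and GRCm38 are named in the submitters' processing notes, with no settings, annotation or strand use given in the sources used here. The log2 table was recomputed from the counts as log2 CPM with an offset of 0.5 and quantile normalization, to within 4.97e-14. CPM are counts over the library total. Depth per library ran from 139619 to 33123742 counts, with exact Poisson intervals at 95%. Alternatives used TMM (edgeR 4.0.16), DESeq2 1.42.0 size factors, the log2 table, other thresholds and each library left out. All members are named; values in every embryo are printed for the 10 of highest median, the 5 of smallest and 5 of largest SD and those in the gene lists. Non-members named are 5 genes just below the threshold and the reference genes; others were chosen after their values were seen. Exon lengths, overlaps and copies (BLAST 2.17.0) come from GENCODE M21, matched for 48 of 49 genes, 2 of them (Tceb1, Mll3) through a RefSeq synonym; promoter windows come from RefSeq. The members and gene lists were chosen with earlier results of these data known. A few items are not reported here.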

Additional observations from a re-analysis of the deposited data

Results flagged for a closer look

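Each of the 49 genes was checked for an embryo whose log2 CPM lay far from the other 6 (gap to the nearest value over the whole range, against Dixon's critical value at 95%). In Gle1, of messenger RNA export, replicate 6 stood apart at 1798 CPM, with the next embryo at 202 CPM and a gap of 0.641 of the range. In Rif1, of replication timing, replicate 4 stood apart at 135 CPM, with the next lowest at 630.3 CPM and a gap of 0.599 of the range. Chance marks about 1 gene in 20, or 2.45 of 49, and 2 were marked. The 49 genes were selected on these CPM values, with a floor of 50 CPM, so the marks are a description and not a test.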

How the results depend on the processing

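The number of genes follows the threshold and the embryos used. At 20 CPM 104 genes passed and took a median of 5.09% of the counts, at 100 CPM 19 genes and 1.58%, against 49 genes and 3.20% at 50 CPM. Leaving out 1 embryo at a time gave 54 to 122 genes, highest without replicate 6, and a median share of 3.46% to 8.04%, highest without replicate 4. Without replicates 3 and 6 together, a setting chosen after seeing the data, 207 genes passed, with a median share of 8.59%; fewer embryos have to pass in these settings. The number whose 95% interval stayed at or above 50 CPM was 38, and 42 to 102 with 1 embryo left out. The rule kept 53 genes with ribosomal RNA and Lars2 out of the total, 52 by TMM, 47 with DESeq2 size factors and 36 in the authors' log2 table, which share 49, 48, 42 and 25 genes with the 49. The median SD of log2 CPM stayed between 1.06 and 1.59 in every setting run. No paired analysis was possible because there is 1 group. Depth limits replicate 6 most, where 50 CPM is 6.98 counts.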
